A study of Mus musculus with 13 samples.

Results

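Skeletal muscle fibres are slow or fast according to the contractile genes they express, and 8 genes that act on this choice are described here across 3 muscles of mice with the *mdm* mutation (muscular dystrophy with myositis, a deletion in the titin gene). The genes are Six4, Eya1, Tbx15, Sox6, Prox1, Tead1, Nfatc1 and Vgll2. They were chosen by symbol, mapped from the Ensembl mouse identifiers of the deposited tables, and not by their values. They are 8 of the 17924 genes in these tables, and all 8 were among the 17069 genes that passed the filter on low counts. RNA was sequenced in 13 libraries, 5 of extensor digitorum longus (EDL), 5 of psoas and 3 of soleus. EDL and psoas are fast muscles in wild-type mice and soleus is a slow one. All 13 libraries come from homozygous *mdm* mice of the colony B6C3Fe a/a-Ttn mdm/J, so the deletion is shared by every group, and wild-type libraries are not analysed here. The mice were 38 days old, apart from 42 days for EDL replicate 3 and psoas replicate 3, 29 days for psoas replicate 1, and 33 and 36 days for soleus replicates 1 and 2. The labels name no treatment. Sex is labelled for 6 libraries, female for replicate 3 of EDL and of psoas, and male for replicate 2 of both and for soleus replicates 1 and 2. The study calls the libraries biological replicates, without naming the animal behind each. It reports fewer mice than libraries over both genotypes. The wild-type ages it lists leave fewer *mdm* mice than *mdm* libraries, so some mice gave more than 1 library.

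The 8 genes form 2 sides of 1 regulatory choice. Homeodomain proteins such as Six4 with EYA coactivators, and the T-box factor Tbx15, favour the fast glycolytic programme, while Sox6 shuts off slow fibre genes in fast fibres. On the other side, Prox1 and the calcineurin-dependent factor Nfatc1 promote slow fibre genes, and TEAD proteins such as Tead1, with cofactors of the vestigial-like family such as Vgll2, bind MCAT elements in promoters of slow and other muscle genes.

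One branch of this choice can be read in sequence. The slow myosin genes Myh7 and Myh7b carry microRNAs in their introns, miR-208b and miR-499, and Sox6 is a known target of both. Their mature forms are shown first, from RefSeq on GRCm38.p6, because they link the level of slow myosin to Sox6. The seed (bases 2 to 8) is in capitals.
miR-499-5p: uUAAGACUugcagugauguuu
miR-208b-3p: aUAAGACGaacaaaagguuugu

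The first lies at chr2:155622893-155622913, forward strand, and the second at chr14:54975710-54975731, reverse strand. Their seeds differ in the last base only. In the longest annotated 3′ UTR of Sox6 (ENSMUST00000206034, 6046 bases, GENCODE mouse release 21), 3 stretches match the miR-499-5p seed (AGTCTTA) and 1 matches the miR-208b-3p seed (CGTCTTA). None of the other 7 genes had a match to either seed in its 3′ UTR. Of 21022 genes with a 3′ UTR, 9.46% hold at least 1 match to the first seed and 1.52% to the second. The 4 stretches of Sox6 are given on the transcribed (reverse) strand of GRCm38, with the letters opposite the seed in capitals.
Sox6 chr7:115476626-115476648, miR-499-5p: catcgccgtcttatgAGTCTTAc
Sox6 chr7:115476313-115476335, miR-499-5p: cttaactattttaaaAGTCTTAc
Sox6 chr7:115476291-115476313, miR-499-5p: caggagacactgcaaAGTCTTAg
Sox6 chr7:115476635-115476657, miR-208b-3p: atctctgcccatcgcCGTCTTAt

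The first and the last of these overlap, so that a stretch for each microRNA lies side by side. A match of letters is a description and not a measured site, and neither microRNA was measured in these libraries.

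A promoter window of Myh7, the slow myosin heavy chain, is shown because it holds letters of both a TEAD and a SOX motif. The window runs from 250 bases before to 50 bases after a RefSeq start (chr14:54994577-54994876, reverse strand, GRCm38.p6). Capitals mark 1 MCAT element (CATTCC, the TEAD motif) and 2 SOX motifs (AACAAT), each searched on both strands.
Myh7 promoter: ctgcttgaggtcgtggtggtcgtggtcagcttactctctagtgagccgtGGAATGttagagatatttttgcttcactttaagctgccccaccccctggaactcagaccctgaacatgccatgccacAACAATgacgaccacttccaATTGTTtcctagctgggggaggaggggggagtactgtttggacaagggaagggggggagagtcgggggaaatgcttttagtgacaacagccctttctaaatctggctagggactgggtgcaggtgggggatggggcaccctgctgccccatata

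Among 32851 promoter windows of this length, 14.7% held an MCAT element and 10.7% a SOX motif, and the share with both was not counted. The other Myh7 window (chr14:54994500-54994799, reverse strand), which overlaps the one shown, held 2 SOX motifs and 0 MCAT elements. Binding to these letters was not measured here. Promoter windows were at hand for 4 of the 8 genes, Six4, Sox6, Prox1 and Vgll2. The upstream window of Sox6 (chr7:116038695-116038994, reverse strand) is shown because Sox6 also holds the stretches above, and this window has an MCAT element next to an NFAT motif (TGGAAA), in capitals as 1 run.
Sox6 promoter: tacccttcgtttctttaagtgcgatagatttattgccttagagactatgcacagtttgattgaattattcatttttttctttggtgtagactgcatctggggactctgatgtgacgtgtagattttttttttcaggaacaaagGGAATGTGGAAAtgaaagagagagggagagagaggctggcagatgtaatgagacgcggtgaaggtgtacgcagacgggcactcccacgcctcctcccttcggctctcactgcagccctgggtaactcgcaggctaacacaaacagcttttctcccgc

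The NFAT letters occurred in 21.4% of all windows. Sox6 has further windows, and none of them held both an MCAT element and an NFAT motif. Those at chr7:116030998-116031297 and chr7:115801560-115801859 held none of the motifs searched. The 2 windows of Prox1 held none of the 5 motifs searched, which also included the MEF3 motif (TCAGGTT, 4.07% of windows) and a T-box motif (AGGTGTGA, 1.28%).

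Total counts ran from 9114176 to 48835209 per library, and the muscles overlapped in depth. By the RNA integrity numbers of the study, no psoas library stood above any EDL library. The part of RNA quality in the differences between psoas and EDL was not tested. Labelled tissues were checked against contractile genes. In soleus, 5 of 13 slow fibre genes rose and 8 of 18 fast fibre genes fell against EDL. In psoas, 12 of the 18 fast genes fell against EDL, and 1 of 13 slow genes (Myl6b) rose. All 18 fast genes had point estimates below 0 in psoas, although both are fast muscles. In soleus against psoas, edgeR called 0 of the 13 slow and 0 of the 18 fast genes. Myh7 missed the limit there with a log2 difference of 4.51 ± 1.10 (SE) (adjusted p = 0.0960, edgeR). DESeq2 called 7 of the slow and 4 of the fast genes in that comparison, and limma 4 and 0. Among other cell types, 2 of 6 adipocyte markers rose in soleus against EDL. In psoas against EDL, 4 of 5 mesothelial markers rose and 2 of 5 cartilage and tendon markers fell. Of 7 satellite cell markers 0 were called. In psoas against EDL, though, Pax7 had a log2 difference of 1.03 (adjusted p = 0.0281, edgeR), with no overlap of the groups. Myf5 stood at 1.27 (adjusted p = 0.0499, edgeR) and Chodl at -0.22 (adjusted p = 0.627, edgeR). Normalized counts given below are counts divided by the size factors of the authors. A difference was called at an adjusted p under 0.01 (the quasi-likelihood test of edgeR, Benjamini-Hochberg adjusted over 17069 genes) and an absolute log2 fold change over 1. Over all genes, 4.93% were called in psoas against EDL, 0.978% in soleus against EDL and 0.0762% in soleus against psoas. Counts of called markers and listed genes, here and below, stand beside these shares and were not tested against them. In bulk samples, fewer cells of a type and less RNA per cell cannot be told apart.

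Which of the 8 genes are abundant was read from FPKM, which correct for exon length. Tbx15 was by far the most abundant, with 65.2 ± 28.4 FPKM in EDL (SD, n = 5), 24.9 ± 7.36 in psoas (SD, n = 5) and 27.1 ± 5.86 in soleus (SD, n = 3). Vgll2 was second in EDL with 5.76 ± 3.39 and in psoas with 8.38 ± 5.08. In soleus Tead1 (6.31 ± 3.81) and Vgll2 (6.20 ± 3.67) took the next places and did not differ beyond their spread. The other end of the order changed with the muscle. Prox1 was the lowest of the 8 in EDL at 0.301 ± 0.140 FPKM, but was above Nfatc1 and Eya1 in psoas (1.39 ± 0.599) and above Sox6 in all 3 soleus libraries (1.97 ± 1.05, against 0.986 ± 0.267 for Sox6). In EDL the ranges of neighbours in the order overlapped except for Tbx15 and Vgll2. In psoas the exception was Tead1 above Six4, and in soleus it was Tbx15 above Tead1.

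**Figure D1:**
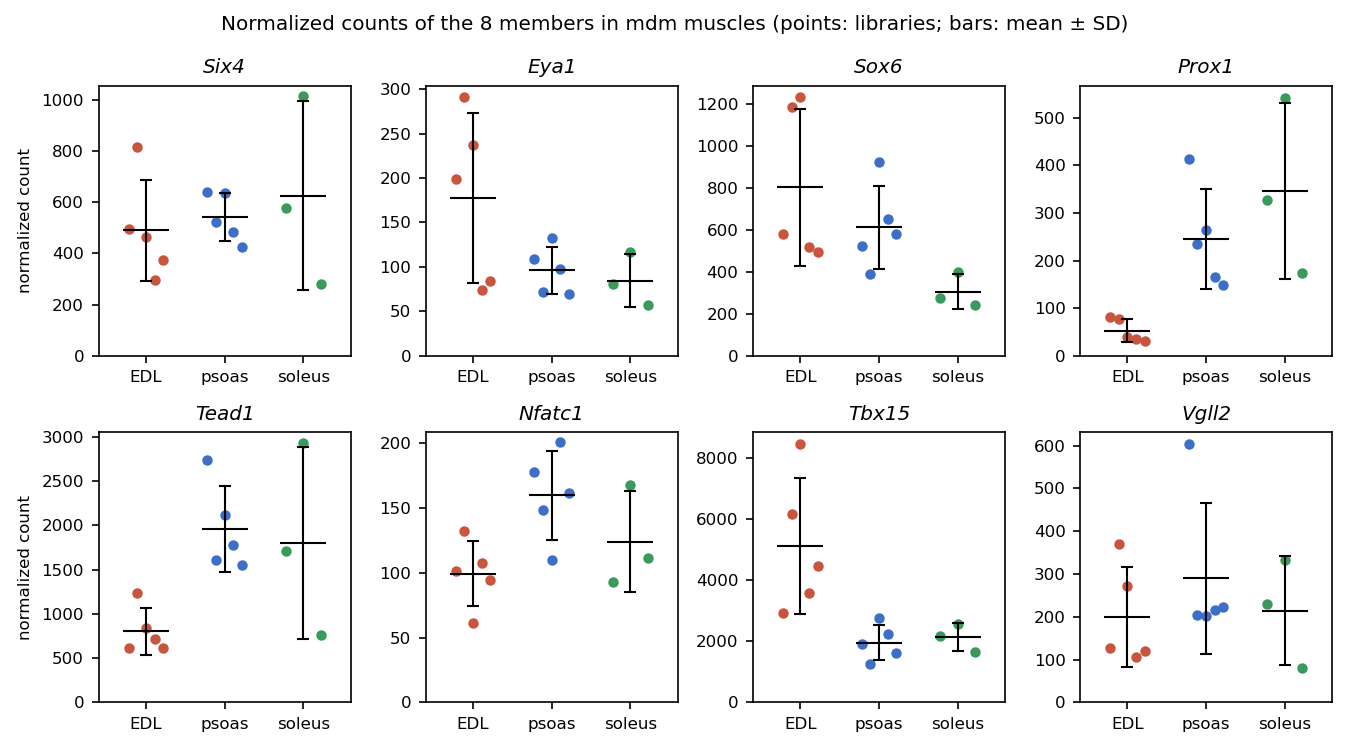
Normalized count (vertical axis, from 0) of each of the 8 genes in EDL, psoas and soleus of *mdm* mice; points are libraries and bars give the mean ± SD (n = 5, 5 and 3). The 5 EDL libraries lie below all psoas and soleus libraries for Prox1 and above them for Tbx15.

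Prox1 is a homeobox factor of slow fibres and also the defining factor of lymphatic endothelium (ENSMUSG00000010175, chr1:190118035-190170714, reverse strand of GRCm38). It showed the largest difference of the 8. Its normalized counts were 82.2, 77.2, 39.8, 34.9 and 31.1 in EDL replicates 1 to 5, 414, 234, 264, 166 and 148 in psoas replicates 1 to 5, and 326, 541 and 174 in soleus replicates 1 to 3. Every psoas and every soleus library lay above every EDL library. The means were 53.0 ± 24.6 (SD, n = 5) in EDL, 245 ± 105 (SD, n = 5) in psoas and 347 ± 185 (SD, n = 3) in soleus, from 20 to 193 counted reads per library in EDL. Prox1 rose in psoas by 2.17 ± 0.39 (SE) on the log2 scale, or 4.50-fold (adjusted p = 0.00345, edgeR). In soleus it rose against EDL by 2.69 ± 0.43 (SE), or 6.43-fold (adjusted p = 0.00457, edgeR). The soleus and psoas libraries overlapped, and their difference was 0.51 ± 0.42 (SE) with a 95% interval of -0.37 to 1.40 (adjusted p = 0.614, edgeR).

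The 2 comparisons with EDL share its 5 libraries. Without EDL replicate 3, the difference between psoas and EDL was 2.09 (adjusted p = 0.0114, edgeR) and not called, and that between soleus and EDL was 2.61 (adjusted p = 0.0134). The soleus call was also lost without EDL replicate 5 (2.55, adjusted p = 0.0109), soleus replicate 1 (2.74, adjusted p = 0.0225) or soleus replicate 2 (2.22, adjusted p = 0.0308). With age as a covariate, an alternative chosen after seeing the data, the soleus difference was 2.44 (adjusted p = 0.0147, edgeR). An antisense gene, Prox1os, shares 133 exon bases with Prox1, and the strand setting of the counting is not given in the sources used here.

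Markers of lymphatic endothelium moved with Prox1. The 6 markers of that list (Lyve1, Flt4, Pdpn, Ccl21a, Reln and Mmrn1) summed to 639, 999.7, 518, 509.7 and 369 normalized counts in EDL, 2237, 2429.8, 1183, 1324 and 1824 in psoas and 2203, 3165 and 1903 in soleus. None of the 6 was at 0 in any library. Of the 6, 4 rose in psoas and 4 in soleus against EDL, among them Mmrn1, by 3.13 ± 0.43 (SE) in psoas and 3.99 ± 0.47 (SE) in soleus, and Flt4, a lymphatic growth factor receptor, by 1.69 ± 0.33 (SE) and 2.42 ± 0.37 (SE). Prox1 as a percent of the marker sum was 12.9, 7.72, 7.69, 6.84 and 8.42 in EDL, 18.5, 9.65, 22.3, 12.5 and 8.13 in psoas and 14.8, 17.1 and 9.12 in soleus. These percents overlapped between the muscles, with medians of 7.72, 12.5 and 14.8. The part of lymphatic cells in the Prox1 difference was not tested. Markers of blood endothelium summed to 1740.4 to 4477 in EDL, 2025 to 3290.1 in psoas and 3219 to 4323 in soleus, and 0 of its 5 markers were called in either comparison (edgeR).

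**Figure D2:**
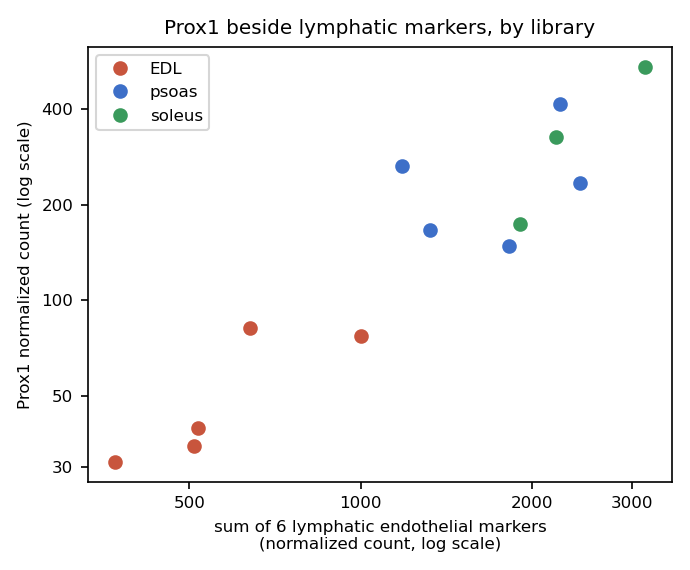
Prox1 normalized count (vertical axis, log scale) against the summed normalized count of 6 lymphatic endothelial markers (horizontal axis, log scale); each point is 1 library, coloured by muscle. EDL libraries hold the lowest values on both axes, with sums of 369 to 999.7 against 1183 to 2429.8 in psoas and 1903 to 3165 in soleus.

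Tead1 (ENSMUSG00000055320, chr7:112679318-112906807, forward strand) encodes the most abundant TEAD factor of these libraries, a DNA-binding partner of YAP and of vestigial-like proteins. Its normalized counts were 611, 1240.2, 838, 712 and 610.0 in EDL, 2741, 1608, 2111, 1779.6 and 1552 in psoas and 1704, 2928 and 763 in soleus. Psoas libraries lay above all EDL libraries, while soleus replicate 3 lay within the EDL range and soleus replicate 2 above all others. Against EDL, Tead1 stood 1.28 ± 0.32 (SE) higher in psoas on the log2 scale (adjusted p = 0.0156, edgeR), short of the limit of 0.01. With EDL and psoas paired by replicate number it was called, at 1.32 (adjusted p = 0.00662, edgeR). DESeq2 also called it (adjusted p = 0.00135), as did edgeR with only EDL and psoas in the fit (adjusted p = 0.00855). It was further called without soleus replicate 2 (adjusted p = 0.00989) or soleus replicate 3 (adjusted p = 0.00658), which share the estimate of the spread. The soleus difference from EDL was 1.17 ± 0.36 (SE) (adjusted p = 0.10, edgeR), and 0.63 without soleus replicate 2.

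Nfatc1 (ENSMUSG00000033016, reverse strand of chromosome 18) encodes the NFAT factor that calcineurin sends to the nucleus of active slow fibres. Normalized counts were 101, 132, 61.7, 108 and 94.7 in EDL, 178, 148, 109.9, 201 and 162 in psoas and 92.7, 168 and 112 in soleus. All 3 muscles overlapped, although Nfatc1 was higher in psoas in all 5 pairs of the same replicate number. The difference between psoas and EDL was 0.67 ± 0.24 (SE) (adjusted p = 0.0669, edgeR), with a 95% interval of 0.16 to 1.19. Soleus stood 0.32 ± 0.28 (SE) from EDL (adjusted p = 0.662) and -0.36 ± 0.28 (SE) from psoas (adjusted p = 0.607, edgeR). The point estimate for soleus thus lay below that for psoas.

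Vgll2 (ENSMUSG00000049641, chr10:52022502-52028471, forward strand) encodes a TEAD cofactor found mainly in skeletal muscle. It had 128, 371, 273, 107 and 119 normalized counts in EDL, 605, 205, 202, 217 and 223 in psoas and 229.7, 334 and 80.8 in soleus. Psoas replicate 1 stood far above the other 4 psoas libraries, and all muscles overlapped. No difference passed the test: 0.53 ± 0.45 (SE) for psoas against EDL (adjusted p = 0.445), 0.12 ± 0.52 (SE) for soleus against EDL (adjusted p = 0.952) and -0.42 ± 0.53 (SE) for soleus against psoas (adjusted p = 0.761, edgeR). Without psoas replicate 1 the first of these was 0.080.

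Sox6 (ENSMUSG00000051910, chr7:115470872-116038796, reverse strand), the repressor of slow genes whose target stretches are printed above, was lowest in soleus. It had 582, 1187, 1236, 521 and 494 normalized counts in EDL, 523, 389.8, 922, 654 and 579 in psoas and 276, 401 and 244 in soleus. The soleus libraries lay below every EDL library, whereas soleus replicate 2 and psoas replicate 2 overlapped. The difference between soleus and EDL was -1.38 ± 0.38 (SE) (95% interval -2.20 to -0.57, adjusted p = 0.0628, edgeR) and was not called, whereas DESeq2 called it (adjusted p = 0.00590). Against psoas it was -0.99 ± 0.37 (SE) (adjusted p = 0.292), and against the mean of both fast muscles -1.19 ± 0.35 (SE) (adjusted p = 0.150, edgeR). Psoas and EDL overlapped and differed by -0.40 ± 0.31 (SE) (adjusted p = 0.403, edgeR).

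The host genes of the 2 microRNAs went the other way in their values. Myh7 had 11097, 1242, 2172, 700.3 and 9798 normalized counts in EDL, 3379, 6343, 20950.4, 271 and 1427 in psoas and 160463, 182496 and 98825 in soleus, a difference of 4.89 ± 1.12 (SE) between soleus and EDL (adjusted p = 0.0261, edgeR). Myh7b had 97.9, 68.3, 121, 13.1 and 93.3 in EDL, 70.8, 66.8, 306, 36.5 and 37.3 in psoas and 538, 405 and 206 in soleus, a difference of 2.30 ± 0.68 (SE) (adjusted p = 0.0849, edgeR). Neither was called at the limit of 0.01, although no soleus library overlapped with EDL for either gene. Psoas replicate 3 had the highest Myh7 and Myh7b of the fast muscles, and its Sox6 count was the highest of psoas.

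Six4 (ENSMUSG00000034460, chr12:73099609-73113456, reverse strand) and Eya1 (ENSMUSG00000025932, chr1:14168954-14310235, reverse strand) encode a homeodomain protein and a coactivator that can bind it. Six4 had 496, 815, 464, 296 and 376 normalized counts in EDL, 638, 524, 637, 485 and 426 in psoas and 577, 1015 and 282 in soleus. The muscles overlapped throughout, with differences of 0.14 ± 0.32 (SE) for psoas against EDL (adjusted p = 0.796) and 0.36 ± 0.36 (SE) for soleus against EDL (adjusted p = 0.720, edgeR). The 95% interval of the first, -0.54 to 0.82, does not reach a log2 change of 1 in either direction. Eya1 had 199, 292, 237, 74.1 and 83.9 in EDL, 109, 71.6, 133, 98.1 and 69.6 in psoas and 80.7, 116 and 56.7 in soleus. EDL fell apart into 3 libraries above all others and 2, replicates 4 and 5, within the range of psoas. Eya1 differed by -0.89 ± 0.37 (SE) between psoas and EDL (adjusted p = 0.108) and by -1.05 ± 0.44 (SE) between soleus and EDL (adjusted p = 0.262, edgeR), and neither passed the test.

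Tbx15 (ENSMUSG00000027868, chr3:99240381-99354259, forward strand) encodes a T-box factor of glycolytic fibres. Its normalized counts were 2935, 6186, 8479, 3579.9 and 4465 in EDL, 1907, 1272, 2781, 2234 and 1617 in psoas and 2178, 2570.2 and 1652 in soleus. Every EDL library lay above every psoas and soleus library. Tbx15 fell in psoas against EDL by 1.39 ± 0.30 (SE) on the log2 scale, 2.62-fold (adjusted p = 0.00840, edgeR). In soleus the difference from EDL was -1.26 ± 0.36 (SE) (adjusted p = 0.0734, edgeR) and was not called, though DESeq2 called it (adjusted p = 0.00751), while soleus and psoas were 0.13 ± 0.34 (SE) apart (adjusted p = 0.895). The psoas call was close to its limit. It was lost without EDL replicate 2, 3 or 5, psoas replicate 1, 2, 4 or 5, or soleus replicate 1 or 2, with an adjusted p of up to 0.0243 and log2 differences over all such omissions of -1.54 to -1.13. It was also lost with only EDL and psoas in the fit (adjusted p = 0.0151) and with age as a covariate (adjusted p = 0.0190, edgeR). The 8 myofibre markers summed to 1616309.7 to 3188062 normalized counts in EDL, 1047805 to 2150904 in psoas and 986749 to 1509353 in soleus, and no marker was at 0 throughout a muscle. Markers of cartilage and tendon, 5 of them measured, summed to 3088 to 6525 in EDL, 477 to 1516 in psoas and 2333 to 3637 in soleus. The part of either set in the Tbx15 difference was not tested.

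**Figure D3:**
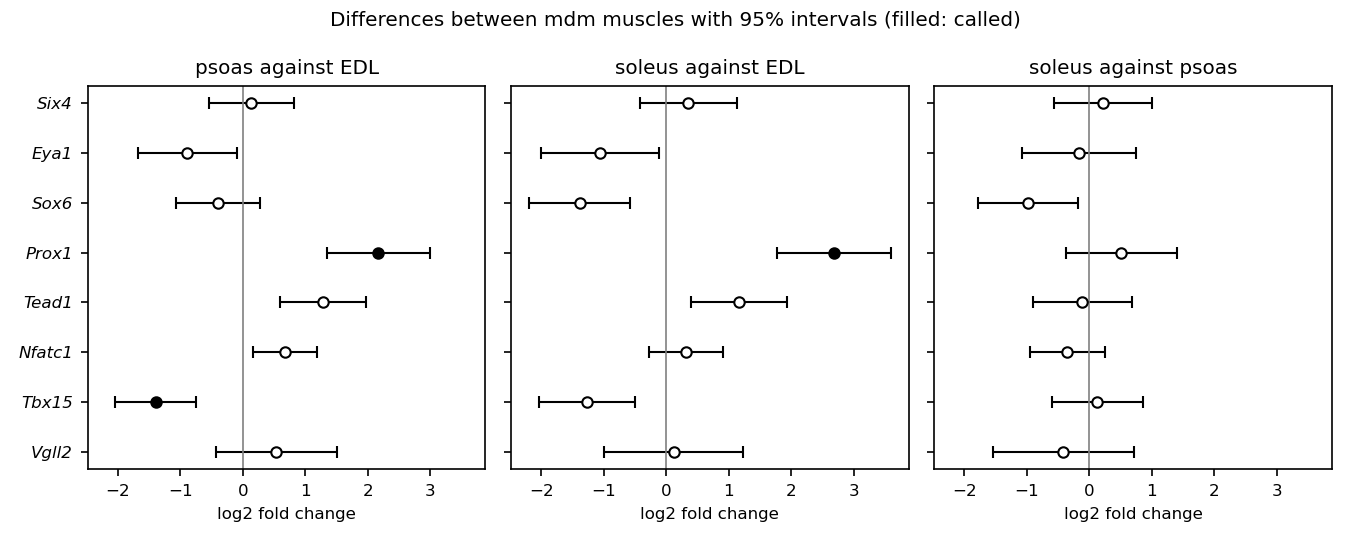
Log2 fold change (horizontal axis) of each gene in 3 comparisons between *mdm* muscles, with 95% intervals from edgeR; filled points were called. Prox1 is called in psoas (2.17) and soleus (2.69) against EDL, Tbx15 in psoas (-1.39), and no gene between soleus and psoas.

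Counted over the 8 genes, 2 were called in psoas against EDL, 1 higher and 1 lower, beside 4.93% of all genes tested. In soleus against EDL 1 was called, Prox1, beside 0.978% of all genes. None was called in soleus against psoas by edgeR, DESeq2 or limma, beside 0.0762% of all genes, and 1 of the 8, Sox6, had an unadjusted p under 0.05. As edgeR also called 0 of the 13 slow fibre genes there, the absence of a call does not show equal levels. Against the mean of EDL and psoas, soleus had 0 called genes of the 8 by edgeR and limma and 1, Prox1, by DESeq2, beside 0.34% of all genes (edgeR), and 2, Prox1 and Sox6, had an unadjusted p under 0.05. With 8 genes, a count of 1 or 2 cannot be set apart from such shares without a test, and none was made. Leaving out EDL replicate 3 took the count to 0 in both comparisons with EDL.

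At an adjusted p under 0.05 with no limit on the fold change, 3 of 8 passed in psoas against EDL (Prox1, Tead1 and Tbx15; 18.1% of all genes), 1 in soleus against EDL (Prox1; 3.43%), 0 in soleus against psoas (0.633%), and 1 in soleus against the mean of both (Prox1, 1.60 ± 0.35 (SE), adjusted p = 0.0416; 1.21%, edgeR). Groups did not overlap for 3 of 8 in psoas against EDL (Prox1, Tead1 and Tbx15; 13% of all genes) and for 3 of 8 in soleus against EDL (Prox1, Sox6 and Tbx15; 11%). They overlapped for all 8 in soleus against psoas (10.2% of all genes did not) and in soleus against both fast muscles (1.72%). The median absolute log2 fold change of the 8 was 0.78 in psoas against EDL, beside 0.44 over all genes. It was 1.11 beside 0.33 in soleus against EDL, and 0.29 beside 0.33 in soleus against psoas.

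EDL and psoas libraries of the same replicate number deviated together from their muscle means, so they were also read as pairs, although replicate 1 joins mice of different ages. Prox1 was higher in psoas in all 5 pairs, by 2.33, 1.55, 2.68, 2.23 and 2.20 log2 CPM for replicates 1 to 5. Tead1 was likewise higher in 5 of 5, by 2.18, 0.34, 1.32, 1.34 and 1.34. Tbx15 was lower in 5 of 5, with differences of -0.61, -2.31, -1.62, -0.66 and -1.47. Pair 2 gave the lowest of the 5 differences for all 8 genes. Sox6, Eya1 and Vgll2 had no common direction, with 2, 1 and 3 of 5 pairs higher in psoas, and Six4 had 4.

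**Figure D4:**
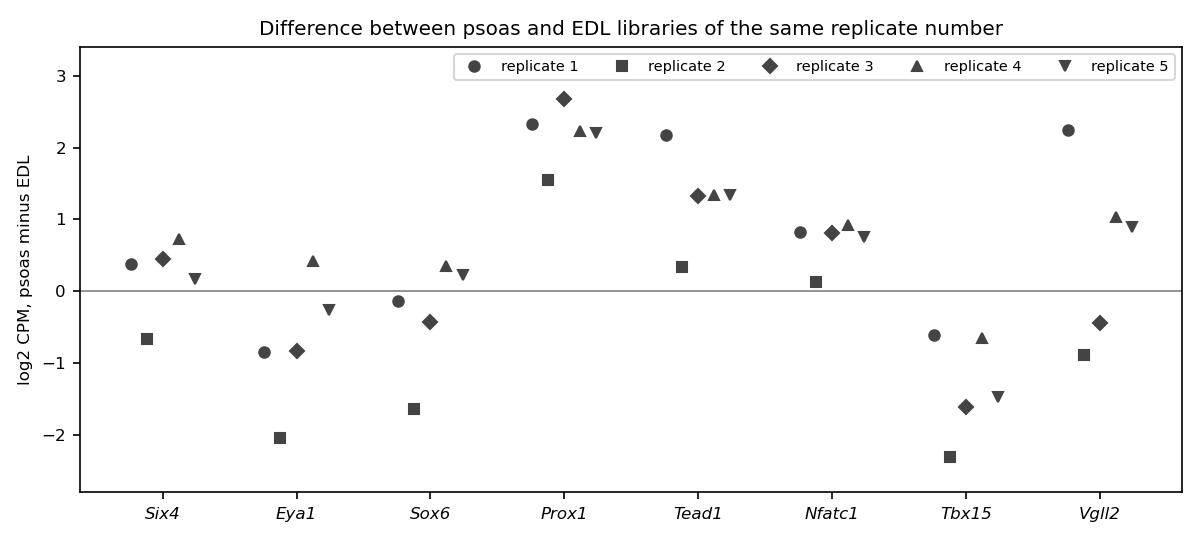
Difference in log2 CPM between psoas and EDL (vertical axis) for each of the 8 genes, with 1 symbol per replicate number. All 5 symbols lie above 0 for Prox1, Tead1 and Nfatc1 and below 0 for Tbx15, while Sox6, Eya1, Vgll2 and Six4 lie on both sides.

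The labels also give each library a code, T1 to T6, whose meaning they do not state. Code T4 holds 1 EDL, 1 psoas and 2 soleus libraries, T5 holds 1 EDL and 1 psoas, and T6 holds 2, 2 and 1. For EDL and psoas, T4 is pair 2, T5 is pair 3 and T6 joins pairs 4 and 5. Their differences within codes therefore repeat the pairs above and add no separate evidence. Within T4, T5 and T6, Prox1 in psoas exceeded EDL by 1.55, 2.68 and 2.21 log2 CPM, and in soleus by 2.41 in T4 and 2.36 in T6. For Tbx15 the differences of psoas from EDL were -2.31, -1.62 and -1.06, and those of soleus -1.40 and -1.26. Both genes thus kept their direction within every code. Tead1 in psoas exceeded EDL by 0.34, 1.32 and 1.34. Sox6 in soleus differed from EDL by -1.85 in T4 and -1.04 in T6, but in psoas it was -1.64 in T4, -0.43 in T5 and 0.29 in T6. Eya1 showed the same pattern in psoas, with -2.04, -0.84 and 0.079, so its lower psoas mean did not hold within T6.

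Ratios of 2 genes within a library do not depend on library scaling, and the pairs Prox1 to Sox6 and Tead1 to Tbx15 were chosen after their values were seen. Counted reads of Prox1 per read of Sox6 came to 0.141, 0.0650, 0.0322, 0.0669 and 0.0630 in EDL, 0.791, 0.601, 0.286, 0.254 and 0.256 in psoas and 1.18, 1.35 and 0.711 in soleus. EDL was apart from both other muscles, and psoas and soleus overlapped. For Tead1 per Tbx15 the ratios were 0.208, 0.200, 0.0988, 0.199 and 0.137 in EDL, 1.44, 1.26, 0.759, 0.797 and 0.960 in psoas and 0.782, 1.14 and 0.462 in soleus. Here too EDL lay below all other libraries, and soleus lay within or below the range of psoas.

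Relatives of the 8 genes were read from lists of their pathways. In the SIX-EYA-DACH list, 0 of 10 genes were called in each of the 4 comparisons (edgeR), with 3, 3, 2 and 1 at an unadjusted p under 0.05, 1, 1, 0 and 1 called by DESeq2 and 0 by limma. Eya4 resembled Sox6 in its levels, with 287 to 820.2 normalized counts in EDL, 300.1 to 605 in psoas and 119 to 261 in soleus. Its soleus libraries lay below all fast ones, with a difference of -1.30 ± 0.35 (SE) from the mean of both (adjusted p = 0.111, edgeR). Eya2 and Eya3 differed from EDL by 0.12 and 0.76 in psoas (adjusted p = 0.845 and 0.0355). Six2 and Six5 were near the floor of detection, at means of 4.6 and 22.5 normalized counts in psoas.

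In the TEAD-VGLL-YAP list of 24 genes, 3 rose and 0 fell in psoas against EDL, beside 4.93% of all genes called. The median log2 fold change of the list was 0.52, beside 0.021 over all genes. Tead4, a TEAD factor of myoblasts and regenerating muscle, rose by 2.34 ± 0.45 (SE) (adjusted p = 0.00460, edgeR). It had 0 to 26.8 normalized counts in EDL and 81.5 to 105 in psoas, with 33.9 to 47.1 in soleus. The part of satellite cells in the Tead4 difference was not tested. Vgll3, a vestigial-like relative of Vgll2, rose by 1.25 ± 0.28 (SE) (adjusted p = 0.00907), and Ajuba, an adaptor that restrains LATS kinases, by 1.37 ± 0.30 (SE) (adjusted p = 0.00893, edgeR). Tead2 and Tead3 had point estimates of 1.07 and 1.10 without passing both limits (adjusted p = 0.0837 and 0.0189), and Vgll4 0.63 (adjusted p = 0.0372). In soleus against EDL, 0 of the 24 were called by edgeR, DESeq2 or limma, with 5 at an unadjusted p under 0.05. The list median there was 0.30, beside -0.029 over all genes. Point estimates were above 0 for 21 of the 24 in soleus and for 19 in psoas, each against EDL.

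The calcineurin-NFAT list of 23 genes had no common direction. In psoas against EDL, Cabin1, a calcineurin inhibitor, rose by 1.12 ± 0.22 (SE) (adjusted p = 0.00571), while Homer1, a scaffold protein, fell by 1.33 (adjusted p = 0.00398) and Myoz1, a Z-disc calcineurin-binding protein of fast fibres, fell by 2.24 (adjusted p = 0.00317, edgeR). In soleus against EDL, Myoz1 fell by 3.79 (adjusted p = 0.00188) and Homer2 rose by 2.23 ± 0.29 (SE) (adjusted p = 0.00137, edgeR). Homer2, a scaffold protein that binds NFAT, was the only gene of the 7 lists called in soleus against psoas. It had 196, 181, 189, 157 and 318 normalized counts in EDL, 80.1, 91.3, 165, 167 and 198 in psoas and 907, 1059 and 953 in soleus, and rose against psoas by 2.81 ± 0.30 (SE) (adjusted p = 6.93e-04, edgeR). The other NFAT genes stayed uncalled: Nfatc2, Nfatc3, Nfatc4 and Nfat5 differed by 0.78, -0.027, 0.21 and 0.058 between soleus and EDL.

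Among relatives of Sox6, Prox1 and Tbx15, 2 T-box genes were called. Tbx1, a T-box factor of craniofacial muscle and of fast glycolytic fibres, fell like Tbx15, by 1.57 in psoas (adjusted p = 0.00398) and by 2.20 in soleus (adjusted p = 0.00604, edgeR). Its normalized counts were 137 to 389 in EDL, 60.5 to 121 in psoas and 46.4 to 57.8 in soleus, with no overlap between any 2 muscles. Tbx18, the closest relative of Tbx15 and a marker of mural cells, went the other way and rose in soleus by 1.30 ± 0.24 (SE) (adjusted p = 0.00831, edgeR). Sox5 and Sox13 had means of at most 45.5 and 22.6 normalized counts in a muscle and no called difference, and Prox2 differed by -0.54 and -0.78 from EDL in psoas and soleus, against the direction of Prox1 in its values and without a call.

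Of 34 other regulators of fibre type, Klf5 (1.98 ± 0.44 (SE), adjusted p = 0.00920) and Gtf2ird1 (1.09 ± 0.21 (SE), adjusted p = 0.00467), which binds a slow troponin enhancer, rose in psoas against EDL. Rbfox1, a splicing factor of muscle, fell in soleus against EDL by 1.83 (adjusted p = 0.00660, edgeR).

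**Figure D5:**
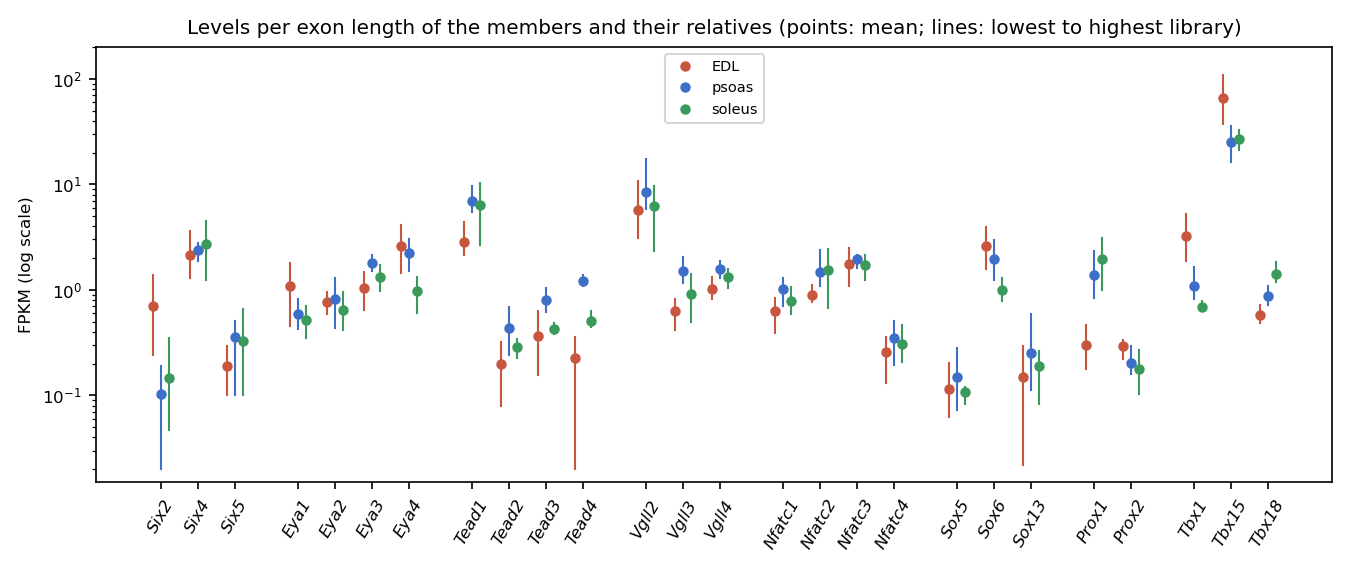
FPKM (vertical axis, log scale) of the 8 genes and 18 relatives in EDL, psoas and soleus; points are means and lines run from the lowest to the highest library, drawn down to 0.02 where a library was at 0 (Six2 in psoas and Tead4 in EDL). Tbx15 is the highest at 65.2 FPKM in EDL, and all 4 TEAD genes have their highest mean in psoas.

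The target genes of the slow side were set beside the regulators. In psoas the called fast genes included Myh4, the fastest myosin, which fell by 4.18 (adjusted p = 0.00223), and Tnnt3, fast troponin T, by 1.70 (adjusted p = 0.00203, edgeR), while the median of the 13 slow genes was 0.016. In soleus the median of the slow genes against EDL was 2.99, and Atp2a2, the slow calcium pump, rose by 3.19 ± 0.37 (SE) (adjusted p = 5.75e-04, edgeR). Myl6b was the slow gene called higher in both, by 2.70 ± 0.32 (SE) in psoas (adjusted p = 6.65e-04) and 3.04 ± 0.34 (SE) in soleus (adjusted p = 5.15e-04, edgeR). In psoas the higher Prox1 and lower Tbx15 thus stood beside 12 fast genes that fell and 1 slow gene that rose.

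Genes with the most similar pattern were found by Pearson's r of log2 CPM over the 13 libraries, among 9984 genes with a mean normalized count of at least 100. The libraries share depth and muscle, so r is a description and has no test. For Prox1 the 3 closest were Mta3 (0.961), Reln (0.945) and Utrn (0.945), of which Reln is also in the lymphatic list. For Tead1 they were Wnk1 (0.977), Arhgap35 (0.955) and Setd2 (0.949), and for Tbx15 Kif16b (0.966), Ppp3ca (0.965) and Synm (0.964), where Ppp3ca is a catalytic subunit of calcineurin. Sox6 was closest to Eya4 (0.966), Jph1 (0.955) and Cacng1 (0.95), so that an EYA coactivator led its list, and Eya1 to Cep85l (0.941), Tex10 (0.929) and Dhx57 (0.929). Six4 was close to Maco1 (0.940) and Arnt (0.938), Nfatc1 to Tram2 (0.944), Sh2b1 (0.937) and Gorasp2 (0.923) and Vgll2 to Tlk1 (0.912), Map2k7 (0.911) and Pdk2 (0.910).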

How the data were processed

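Raw counts per gene were deposited by the authors for each of 13 *mdm* libraries, made with a stranded total RNA kit. Reads of low-quality libraries had been trimmed with Trimmomatic 0.32, and all were aligned to GRCm38 with TopHat2 2.1.1 and counted on genes with GenomicAlignments, per the labels and the study's methods. The deposited normalized signal is the count divided by a DESeq2 size factor that the authors computed with libraries not used here.

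Counts were tested with edgeR 4.0.16 (quasi-likelihood, TMM) in R 4.3.3, in 1 fit of all libraries with muscle as the factor, over the 17069 genes whose normalized count reached 10 in 3 or more libraries. DESeq2 1.42.0 and limma 3.58.1 were alternatives. The study also fitted the sequencing run, which the labels do not name. FPKM are normalized counts per kb of exon, scaled to the geometric mean of the library totals, and are known up to 1 common factor. Log2 CPM have a prior count of 2. Same-numbered EDL and psoas libraries correlated in their deviations from the muscle means (0.407, 0.370, 0.316, 0.289 and 0.371), so their numbers were taken as pairs. Pairing by animal was not shown, as replicate 1 joins mice of 38 and 29 days and has the highest of these values. Differently numbered libraries, EDL replicate 4 and soleus replicate 3, reached 0.442. The code was tested on simulated data. Some genes that the naming rule picked are not reported here.

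Named were all 8 genes, genes of the pathway lists that were called (at most 6 per list and comparison, by p) or belong to the same family, and the 3 genes most alike in pattern. Myh7 and Myh7b, which were not called against EDL, were added as hosts of the microRNAs with their values known. The 8 genes were chosen by symbol and not by their values, but, like the lists, with earlier results of these data known. Depth ran from 9114176 to 48835209 counts. Reads carry no molecular identifiers, so precision from depth covers counting error only. The p-values measure the spread between libraries, of which some share an animal, while the main fit treats all 13 as independent.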

Additional observations from a re-analysis of the deposited data

Results flagged for a closer look

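Of the 16 sets of values tested for a library far from the others (8 genes in EDL and in psoas, 5 libraries each; soleus, with 3, was not tested), 1 was flagged, about what chance gives at 1 in 20. Vgll2, the TEAD cofactor, had 605 normalized counts in psoas replicate 1, while the other 4 psoas libraries lay between 202 and 223. The mouse of psoas replicate 1 was 29 days old, the youngest of the series, and its library is the 1 library with code T3. Tead1 and Prox1 were also highest there among psoas libraries. Age and code cannot be told apart, as they meet in 1 library. Its cell type markers also stood apart, with a Schwann cell sum of 11608 against 1282 to 4582 in the other psoas libraries. Its sums for cartilage and tendon (477) and for macrophages (3588) were the lowest of psoas. The part of tissue make-up in the flagged value was not tested.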

How the results depend on the processing

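Alternatives were another normalization (RLE), DESeq2, no filter on low counts, limma-trend, the label code or the replicate number as a block, only the 2 muscles compared, a looser limit, and leaving out each library in turn. The size factors of the authors and age as a covariate were added after seeing the data. The number of the 8 genes called in psoas against EDL was 2. It became 3 by DESeq2, with the replicate block and at an adjusted p under 0.05 with no limit on the fold change, 1 with age as a covariate, and 0 to 3 without 1 library. In soleus against EDL it was 1 and became 3 by DESeq2, 0 with age, and 0 to 1 without 1 library. In soleus against the mean of EDL and psoas it was 0, and 1 by DESeq2 and 1 at an adjusted p under 0.05. In soleus against psoas it was 0 under all of them. The cause of these changes was not tested.

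Over all genes, 841, 167, 13 and 58 were called in psoas against EDL, soleus against EDL, soleus against psoas and soleus against the mean. DESeq2 called 1586, 633, 171 and 256, and an adjusted p under 0.05 alone 3093, 585, 108 and 207. With age as a covariate, psoas against EDL had 510, soleus against EDL 49 and soleus against the mean 35. The label code block gave 86 in soleus against EDL, 6 in soleus against psoas and 22 in soleus against the mean. In psoas against EDL that block called 576 genes higher and 530 lower. A fit of only the 2 muscles compared gave 557 genes for psoas and EDL, and 8 for soleus and psoas, where limma-trend gave 21. Without 1 library the counts ran from 318 to 803, 19 to 184, 3 to 21 and 9 to 69.

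The replicate block called 1267 genes in psoas against EDL, where same-numbered libraries were taken as pairs, and added Tead1 to the calls among the 8. It changed no other call of the 8. Soleus numbers did not pair (correlations of -0.30 to 0.42 with the same number in EDL or psoas), and the block there turned small values that were never called: Vgll2 in soleus against EDL (-0.28), Six4 in soleus against psoas (-0.18) and the mean (-0.056), and Nfatc1 against the mean (0.049). The label code block turned the same values of Vgll2 (-0.32) and Six4 (-0.16 and -0.060), and age turned Vgll2 (-0.29). Leaving out 1 library also changed the sign of uncalled values, over ranges of -0.00092 to 0.41 for Six4 in psoas against EDL, -0.18 to 0.70 for Six4 and -0.33 to 0.50 for Vgll2 in soleus against EDL, -0.33 to 0.56 for Six4, -0.47 to 0.035 for Eya1, -0.67 to 0.24 for Tead1, -0.033 to 0.28 for Tbx15 and -0.89 to 0.041 for Vgll2 in soleus against psoas, and -0.25 to 0.63 for Six4, -0.018 to 0.89 for Tead1, -0.31 to 0.16 for Nfatc1 and -0.61 to 0.22 for Vgll2 against the mean. Prox1, Tbx15, Sox6 and Eya1 kept their direction against EDL, in psoas and in soleus, under every alternative. With 3 soleus libraries, the 95% interval of Vgll2 between soleus and psoas (-1.54 to 0.71) reaches past a log2 change of 1 in the direction of lower soleus levels.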
